A study of Mus musculus with 8 samples.

Results

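The genes described here are the developmental regulators of 11 homeobox families outside the Hox clusters: Alx, Barx, Dlx, Emx, Irx, Isl, Lhx, Msx, Nkx, Vax and the Six-type (sine oculis) genes. Members were chosen by symbol, as protein-coding genes of these families with at least 10 counts in 1 or more of the 8 libraries. Of the 54 genes in these families, 46 met this rule, out of 52550 genes listed in the count files. They lie on 15 chromosomes of GRCm38. The messenger RNA came from mouse embryonic stem cells (ESCs), control or Dax1KO, each kept in 2i/LIF or in LIF/serum medium, and 2 libraries stand for each of the 4 groups. The question asked of these genes was whether their transcripts differed between genotypes within a medium, and between media within a genotype.

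Control ESCs and Dax1KO ESCs were sequenced at passage 3 and grew on gelatin. The LIF/serum medium held 15% fetal bovine serum and 10 ng/ml LIF, a cytokine that sustains self-renewal. The 2i/LIF medium had no serum and added 1 μM PD0325901, a MEK inhibitor, and 3 μM CHIR99021, a GSK3 inhibitor, to 10 ng/ml LIF. Dax1 (Nr0b1) encodes an orphan nuclear receptor without the usual zinc finger domain that acts largely as a corepressor. The Dax1KO cells were made with a CRISPR/Cas9 lentivirus and zeocin selection in 2i culture and come from 1 clone, so a difference between the clone and the control cells cannot be told apart from the loss of Dax1. Nothing in the labels says that the 2 libraries of a group came from separate cultures, so P values measure the spread between these libraries, which may be technical.

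Homeobox genes encode transcription factors that bind DNA through a homeodomain. In the embryo, the families described here pattern the eye, brain, limbs, heart, gut and skeleton, usually after gastrulation. In ESCs, many of them are held at a low level with promoters marked by Polycomb complexes, so their transcripts are often read as a sign of differentiation. The families differ in their partners: Six-type proteins act with Eya and Dach cofactors, LIM homeodomain proteins (Lhx and Isl) with Ldb cofactors, and many NK-type proteins with Groucho corepressors. Irx proteins belong to the TALE class.

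Promoters of the members are rich in CG dinucleotides, which are otherwise depleted in the mouse genome. RefSeq promoter sequences were matched to 32 of the 46 members. Over the 250 bases before the start, the median was 18.5 CG dinucleotides in these 32 promoters and 6 in all 32851 promoters. Their median GC content was 65% against 52.4% over all promoters. The upstream sequences of Irx2, Barx1 and Six4, which were called between genotypes in LIF/serum, and of Lhx2 and Lhx1, which were called between media in both genotypes, are printed 5′ to 3′ in lower case with every CG in capitals. Where RefSeq and GENCODE place the start differently, only the bases before both starts are given.
Irx2: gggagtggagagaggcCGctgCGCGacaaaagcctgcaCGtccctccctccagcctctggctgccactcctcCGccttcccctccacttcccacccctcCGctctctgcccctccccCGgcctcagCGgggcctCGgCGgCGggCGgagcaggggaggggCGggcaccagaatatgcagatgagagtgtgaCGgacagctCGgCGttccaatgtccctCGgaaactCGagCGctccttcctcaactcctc
Barx1: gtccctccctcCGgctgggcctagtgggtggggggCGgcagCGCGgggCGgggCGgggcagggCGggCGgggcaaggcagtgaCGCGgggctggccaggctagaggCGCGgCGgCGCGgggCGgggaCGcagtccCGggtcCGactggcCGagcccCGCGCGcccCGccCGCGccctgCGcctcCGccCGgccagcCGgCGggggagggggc
Six4: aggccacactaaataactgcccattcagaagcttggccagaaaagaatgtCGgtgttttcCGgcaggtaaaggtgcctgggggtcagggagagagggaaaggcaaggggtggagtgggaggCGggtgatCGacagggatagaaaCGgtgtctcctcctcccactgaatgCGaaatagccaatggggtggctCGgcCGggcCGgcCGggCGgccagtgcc
Lhx2: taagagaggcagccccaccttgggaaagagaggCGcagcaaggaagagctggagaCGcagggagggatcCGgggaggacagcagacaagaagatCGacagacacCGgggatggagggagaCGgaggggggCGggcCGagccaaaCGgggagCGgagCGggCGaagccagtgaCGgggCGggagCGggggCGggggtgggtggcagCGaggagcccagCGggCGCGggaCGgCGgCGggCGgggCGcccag
Lhx1: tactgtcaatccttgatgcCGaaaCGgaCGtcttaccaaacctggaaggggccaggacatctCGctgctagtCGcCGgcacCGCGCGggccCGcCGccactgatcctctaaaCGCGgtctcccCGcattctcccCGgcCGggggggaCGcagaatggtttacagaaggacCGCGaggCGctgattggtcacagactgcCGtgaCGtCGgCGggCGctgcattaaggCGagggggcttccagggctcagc
In GRCm38.p6 these are chr13:72628570-72628819 (plus strand) for Irx2, chr13:48662786-48662997 (plus strand) for Barx1, chr12:73113457-73113675 (minus strand) for Six4, chr2:38339031-38339280 (plus strand) for Lhx2 and chr11:84525536-84525784 (minus strand) for Lhx1. The stretch of Barx1 holds 31 CG in 212 bases, and that of Six4 holds 11 in 219 bases. Between them lie Irx2 with 19 in 250 bases, Lhx2 with 25 in 250 bases and Lhx1 with 26 in 249 bases. Both strands of each 250-base window were searched for AAGGTCA, the core of the site bound by the orphan receptors Esrrb and Nr5a2, which was found in 0 of the 32 member promoters, or 0%, and in 4.08% of all promoters. The homeodomain core TAAT was found in 43.8% against 54.9%, and TATAAA in 6.25% against 12.4%. No motif contains another, and these matches describe letters only. No promoter entry was matched for Vax2.

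The libraries held 35911384 to 37286251 counts each, of which the 10 highest genes made up 4.27% to 5.18%. Dax1 had counts of 456 and 300 in control cells and 0 and 0 in Dax1KO cells in 2i/LIF. In LIF/serum it had 5095 and 4689 counts in control cells and 14 and 6 in Dax1KO cells. Of 9 pluripotency markers none was at 0 in both libraries of any group, which does not show what share of the cells was undifferentiated. Their summed level was 2067 RPKM in control and 1878 in Dax1KO cells in 2i/LIF, and 1692 and 1585 in LIF/serum. Of these sums Nanog supplied 846, 758, 323 and 391 RPKM in the same order. The paper reports that Dax1KO cells differentiated and died in large numbers once moved to LIF/serum. RPKM here are normalized counts scaled to exon length in kb and to library size. Counts from 1 to 12 were divisible by 3 in 38.7% to 41.2% of genes with such counts, so low counts may not each stand for a separate fragment, and a count of 3 per library was taken as the floor. Floors cover counting error only.

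Most members were near the lower end of detection. At least 10 counts in both libraries were found for 30 members in control and 31 in Dax1KO cells in 2i/LIF, and for 28 and 32 in LIF/serum. Counts reached at least 10 in every library for 20 members, and 14 had a count of 0 in 1 or more libraries. The median level of the members was 0.280 RPKM in control and 0.358 in Dax1KO cells in 2i/LIF, and 0.187 and 0.234 in LIF/serum. Averaged over the groups, 6 of the 46 members lay above 2.85, the median level of all genes tested. In bulk samples, fewer cells with a transcript and less transcript per cell cannot be told apart.

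The 8 genes outside the rule reached at most 6 counts in any library. Nkx2-1, Nkx2-6 and Nkx3-2 were at 0 in all 8, Irx6 reached 3, Emx2 reached 5, and Dlx5, Lhx8 and Vax1 reached 6. Inside the rule, Nkx2-2 and Six6 reached 14 counts. The low-count filter of the test kept 43 members and dropped 3, Lhx3 and Lhx9 among them. Of the 43, 10 had at least 10 counts in both libraries of only 1 group, and Lhx4 had that in 0 groups. Such members pass the filter through the group in which they are high, so counts over the 43 are a description.

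**Figure D1:**
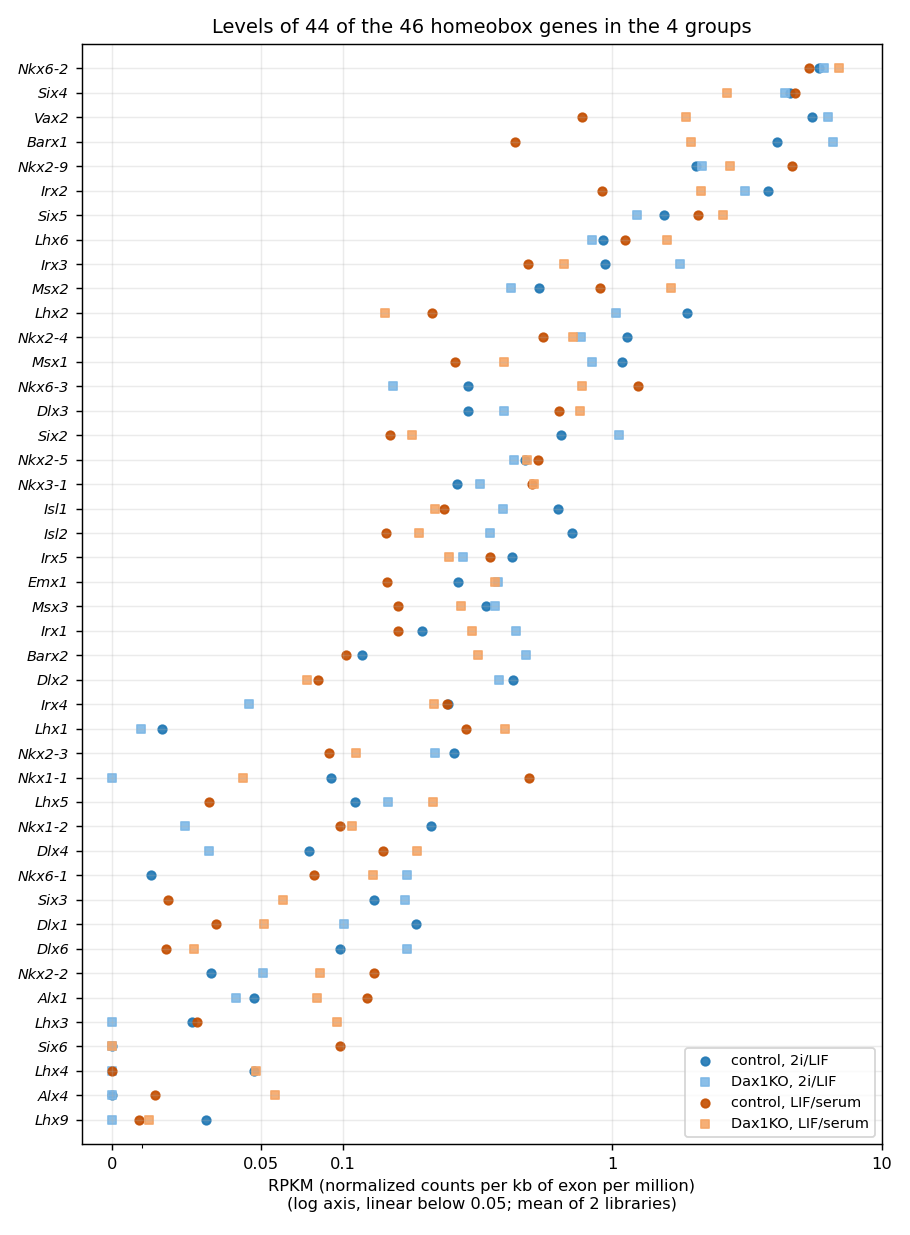
Levels of 44 of the 46 members in the 4 groups, in RPKM (horizontal axis, logarithmic above 0.05 and linear below), with 1 point for the mean of the 2 libraries of each group and genes ordered by their average over the groups. Nkx6-2 leads at 6.06 and most members lie below 1, while Vax2, Barx1 and Lhx2 spread widest between media among the higher genes.

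The order of levels per length was led by genes of the Nkx, Six-type, Vax and Barx families. Nkx6-2, a repressor in ventral spinal cord patterning, averaged 6.06 RPKM over the 4 groups. Its level was 5.86 ± 1.83 (SD, n = 2) in control and 6.08 ± 1.00 in Dax1KO cells in 2i/LIF, and 5.38 ± 0.44 and 6.90 ± 0.41 in LIF/serum. The counts of Nkx6-2 were 500 and 320, 489 and 385, 335 and 374, and 527 and 475 in these 4 groups, and it was called in no comparison. Nkx6-2 overlaps Inpp5a on the opposite strand, which had 999 to 2047 counts. Strand use in the counting is not given in the sources used here. Of the 46 members, 9 overlap a gene that reached at least 10 counts in a library.

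High levels were also found for Six4 at 4.08, Vax2 at 3.61, Barx1 at 3.26, Nkx2-9 at 2.89 and Irx2 at 2.48 on the same scale. With the longest transcript in place of all exons, Six4 led at 6.49. Six4 alone supplied 31.0% and 33.1% of the summed normalized counts of the members in control and Dax1KO cells in 2i/LIF, and 41.8% and 26.4% in LIF/serum. In the other families the highest members per length were Lhx6 (1.12), Msx2 (0.877), Dlx3, Isl1 and Emx1. The highest count in any library was 98 for Dlx3, 109 for Isl1 and 42 for Emx1.

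In control ESCs, members were called between media in both directions. A call needed an adjusted P (Benjamini-Hochberg, over 20749 genes) no higher than 0.05 in edgeR's quasi-likelihood test and a fold change of 1.2 or more. Of the 43 members tested, 11 were higher in 2i/LIF than in LIF/serum (25.6%) and 4 were lower (9.30%). Of all genes tested, 20.3% were higher and 16.5% lower. The members lay above the background in the first direction and below it in the second, by a few genes each, which was not tested. The median log2 fold change of 2i/LIF over LIF/serum was 0.30 over the members and 0.01 over all genes.

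Lhx2, a LIM homeodomain factor of the eye field and forebrain, had 286 and 322 counts in 2i/LIF and 42 and 23 in LIF/serum in control cells. It was 8.79-fold higher in 2i/LIF (log2 fold change 3.14, SE 0.34, adjusted P = 0.000363). The groups stood far apart, and the same held for Barx1, which acts in stomach and tooth development. Barx1 had 176 and 243 counts in 2i/LIF and 6 and 36 in LIF/serum (log2 fold change 3.22, SE 0.60, adjusted P = 0.00423). Its log2 fold change was 2.45 without control LIF/serum replicate 1 and 4.99 without replicate 2, so its place beside Lhx2 is not fixed. Vax2, a factor of the ventral retina, had 287 and 216 counts in 2i/LIF and 22 and 44 in LIF/serum (log2 fold change 2.84, SE 0.42, adjusted P = 0.00144). Irx2, an Iroquois factor, had the lowest adjusted P of the members, with 469 and 438 counts against 95 and 113 (log2 fold change 2.04, SE 0.21, adjusted P = 0.000274). The antisense transcript Vax2os overlaps Vax2, and it was also higher in 2i/LIF in control cells (log2 fold change 1.72, adjusted P = 0.00395).

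The neighbouring genes Dlx1 and Dlx2 (chromosome 2, 9.43 kb apart), which act in forebrain interneurons and the jaw, were both called. Dlx1 had 40 and 34 counts in 2i/LIF and 10 and 3 in LIF/serum (log2 fold change 2.40, SE 0.62, adjusted P = 0.0176). It overlaps Dlx1as on the opposite strand, which had 6 to 28 counts. Dlx2 had 52 and 38 counts against 8 and 8 (log2 fold change 2.39, SE 0.47, adjusted P = 0.00569). The pair thus had low counts in LIF/serum, while the neighbours Dlx3 and Dlx4 (chromosome 11, 15.2 kb apart), which act in skin, placenta and bone, had estimates on the other side of 0. Those were -1.11 for Dlx3 and -0.91 for Dlx4, and neither was called.

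Msx1, a target of BMP signals in limb and tooth, had 161 and 86 counts in 2i/LIF and 30 and 26 in LIF/serum (log2 fold change 2.05, SE 0.41, adjusted P = 0.00575). Isl2, a motor neuron factor, had 56 and 58 counts against 14 and 8 (log2 fold change 2.28, SE 0.51, adjusted P = 0.0102). Six2, which keeps kidney progenitors, had 57 and 43 counts against 8 and 14 (log2 fold change 2.09, SE 0.48, adjusted P = 0.0114). In all of these the lower 2i/LIF library stood above the higher LIF/serum library. With 2 libraries a group, separation of this kind is a description only, here and below, and its share over all genes is not given. Lhx4, a pituitary factor, had 16 and 4 counts against 0 and 0 and was at least 3.34-fold higher against the floor of 3 counts per library (adjusted P = 0.0475).

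The 4 members lower in 2i/LIF in control cells were Lhx1, Nkx6-3, Nkx2-9 and Six6. Lhx1, a factor of the anterior mesendoderm and the kidney, had 5 and 0 counts in 2i/LIF and 48 and 33 in LIF/serum (log2 fold change -4.04, SE 0.99, adjusted P = 0.0142). Nkx6-3, of the stomach epithelium and hindbrain, had 32 and 16 counts against 87 and 105 (log2 fold change -2.08, SE 0.39, adjusted P = 0.00464). Nkx2-9, which acts in ventral neural patterning, had 101 and 88 counts against 219 and 186 (log2 fold change -1.18, SE 0.24, adjusted P = 0.00640). Six6, of the retina and pituitary, had 0 and 0 counts in 2i/LIF and 14 and 13 in LIF/serum, at least 4.78-fold lower against the floor (adjusted P = 0.0317). Six6 overlaps 4930447C04Rik on the opposite strand, which had 869 to 1443 counts.

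With 1 library left out, some of these calls were lost. Isl2 lost its call without control LIF/serum replicate 2, with an adjusted P of 0.0581. Dlx1 lost it without either 2i/LIF replicate or LIF/serum replicate 2, with an adjusted P of up to 0.0723, and its log2 fold change was 3.49 without LIF/serum replicate 1 and 1.77 without replicate 2. Six2 lost it without 2i/LIF replicate 1 or LIF/serum replicate 1 (up to 0.0613), while Lhx1 lost it without 2i/LIF replicate 2 or LIF/serum replicate 1 (up to 0.0559), and its log2 fold change was -3.11 without 2i/LIF replicate 2 and -8.43 without replicate 1, where the library left was at 0 and the value is no bound. Lhx4 lost its call without any single one of the 4 libraries and with no filter on low counts, with an adjusted P of up to 0.194. Six6 lost it without either 2i/LIF replicate, with no filter and with DESeq2, with an adjusted P of up to 0.118.

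**Figure D2:**
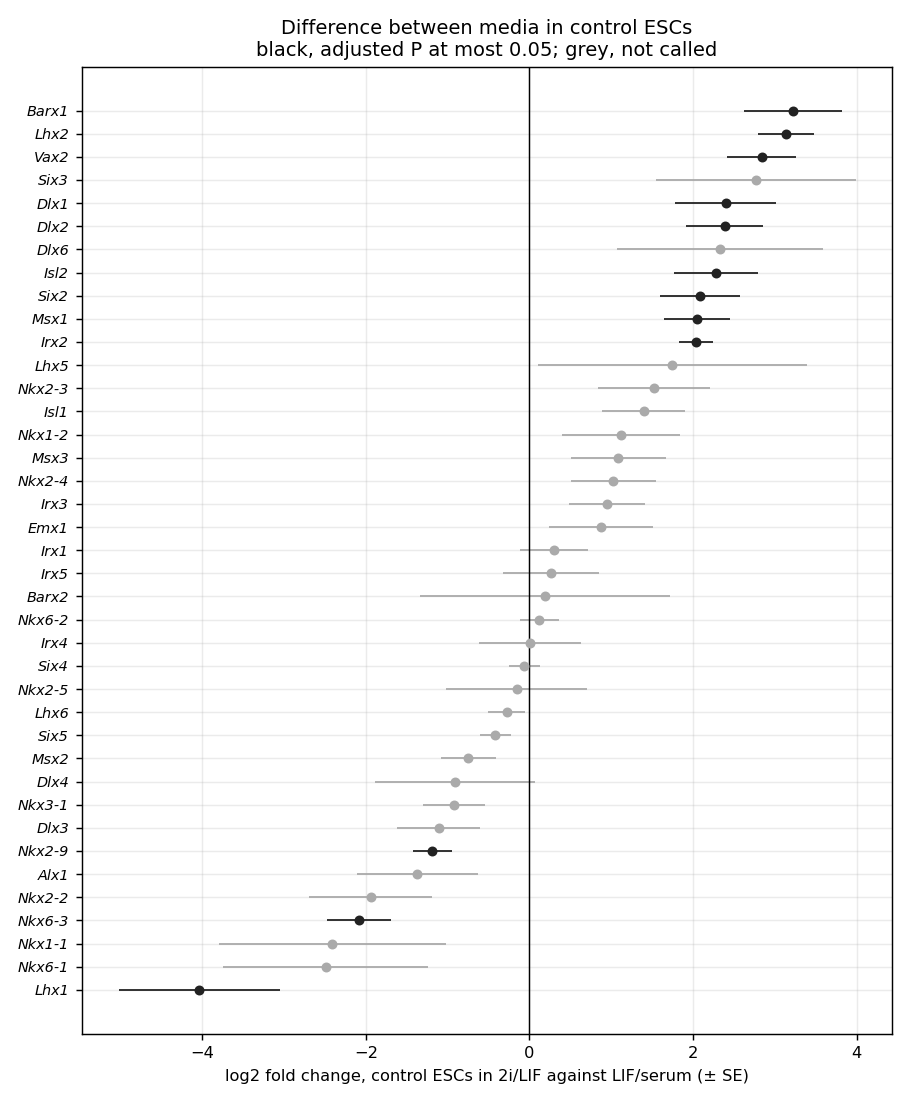
Log2 fold change of 2i/LIF over LIF/serum in control ESCs (horizontal axis, bars ± SE) for the tested members shown with counts in both media, with called members in black and the others in grey; Six6, Lhx4 and Alx4 are left out since both libraries of 1 medium were at 0. The called members run from Lhx1 at -4.04 to Barx1 at 3.22, and Six4 lies near 0.

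In Dax1KO ESCs, 8 of the 43 members were higher in 2i/LIF than in LIF/serum (18.6%) and 5 were lower (11.6%). Of all genes tested, 15.2% were higher and 13.7% lower, which is near the share among the members. The median log2 fold change was 0.09 over the members and 0.01 over all genes. Of the 15 members called in control cells and the 13 called in Dax1KO cells, 8 were called in both, each in the same direction, among them Lhx2, Barx1, Vax2, Dlx2 and Six2 upwards in 2i/LIF, and Lhx1 and Nkx6-3 downwards. These 8 are 18.6% of the members tested, against 20.4% of all genes, and make up 53.3% of the members called in control cells and 61.5% of those called in Dax1KO cells, against 55.5% and 70.6% over all genes.

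Lhx2 again stood far apart between media, with 149 and 192 counts in 2i/LIF and 20 and 28 in LIF/serum in Dax1KO cells (log2 fold change 2.83, SE 0.35, adjusted P = 0.000857). Lhx1 had 3 and 0 counts against 69 and 55 (log2 fold change -5.24, SE 1.05, adjusted P = 0.00795). Six2 had 99 and 70 counts against 10 and 19 (log2 fold change 2.54, SE 0.47, adjusted P = 0.00547). The counts of these 3 genes did not overlap between media in either genotype. Dlx2 had 37 and 45 counts against 10 and 6 (log2 fold change 2.35, SE 0.47, adjusted P = 0.00799). Nkx6-3 had 14 and 12 counts against 60 and 71 (log2 fold change -2.31, SE 0.42, adjusted P = 0.00495). The fold changes of Vax2 and Barx1 were 3.36 and 3.35 in Dax1KO cells, where both had more counts in LIF/serum than the control cells did.

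Msx2, a BMP target of skull and limb, was called in Dax1KO cells, with 59 and 45 counts in 2i/LIF and 191 and 220 in LIF/serum (log2 fold change -1.97, SE 0.34, adjusted P = 0.00401). In control cells its log2 fold change was -0.75 and was not called. Six5, a factor expressed in many tissues, had 139 and 140 counts against 286 and 302 (log2 fold change -1.06, SE 0.19, adjusted P = 0.00462). Lhx6, a factor of cortical interneurons, had 164 and 140 counts against 288 and 297 (log2 fold change -0.93, SE 0.22, adjusted P = 0.0169). These 3 genes were higher in LIF/serum, while Six4 and Irx3 were higher in 2i/LIF. Six4, which acts in muscle and kidney, had 1624 and 1956 counts against 1100 and 1090 (log2 fold change 0.72, SE 0.19, adjusted P = 0.0225). Irx3, an Iroquois factor of neural and heart tissue, had 139 and 233 counts against 79 and 60 (log2 fold change 1.43, SE 0.45, adjusted P = 0.0462). It overlaps Irx3os on the opposite strand, which had 4 to 35 counts. A call in 1 genotype and not in the other does not show that the genotypes differ, and the test of that difference, which is given with Irx2, called that gene alone.

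Several of the Dax1KO medium calls were also lost with fewer libraries. Lhx6, Barx1 and Irx3 lost theirs without any single one of the 4 libraries, with an adjusted P of up to 0.115, 0.176 and 0.257. Six4 kept its call without 2i/LIF replicate 1 and lost it without each of the other 3 (up to 0.149). Barx1, Irx3 and Six4 also lost theirs with no filter on low counts. Lhx1 lost its call without 2i/LIF replicate 2 (log2 fold change -4.30, adjusted P = 0.0510; -8.90 without replicate 1, where the library left was at 0), and Dlx2 and Vax2 without either replicate 2 (up to 0.0526 and 0.0908). Lhx2, Msx2, Six5, Nkx6-3 and Six2 kept their calls without each of the 4.

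Loss of Dax1 in LIF/serum came with 4 called members, 2 in each direction, and Irx2 and Barx1 were upregulated while Six4 was downregulated. These are 4.65% of the 43 members in each direction, where 8.87% of all genes tested were upregulated and 5.78% downregulated. An unadjusted P under 0.05 was found for 10 members, or 23.3%, against 30.7% of all genes, and DESeq2 called 5 of the 40 members with an adjusted P, against 19.7% of all such genes. In each of these counts the share of members lay below that of all genes, by a few genes, and this gap was not tested. Averaged over the groups, 6 of the 46 members lay above the median level of all genes tested. The median log2 fold change was 0.37 over the members and 0.01 over all genes.

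Irx2 had 95 and 113 counts in control and 268 and 264 in Dax1KO cells in LIF/serum. In normalized counts this was 110.6 ± 14.0 and 256.9 ± 0.72 (SD, n = 2), a 2.32-fold increase (log2 fold change 1.21, SE 0.21, adjusted P = 0.0101). Both Dax1KO libraries lay well above both control libraries. In 2i/LIF the gene was higher in both genotypes, with 469 and 438 counts in control and 332 and 435 in Dax1KO cells (log2 fold change -0.28, adjusted P = 0.538). The Dax1KO effect in LIF/serum exceeded that in 2i/LIF by 1.49 on the log2 scale (SE 0.29, adjusted P = 0.0402). Irx2 was the single member of 43 called in this test of the difference, or 2.33%, against 2.87% of all genes. The increase in LIF/serum was not called without Dax1KO LIF/serum replicate 2 (adjusted P = 0.0546), and the difference between media was not called without any single library or without the filter on low counts (up to 0.145).

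The other Iroquois genes of chromosome 13 were read beside Irx2, since Irx1 (71957921 to 71963723, minus strand), Irx2 (72628820 to 72634198, plus strand) and Irx4 (73260479 to 73269608, plus strand) form a known cluster. Irx1 had 15 and 14 counts in control and 31 and 29 in Dax1KO cells in LIF/serum (log2 fold change 0.90, adjusted P = 0.175). In 2i/LIF Irx1 had 20 and 18 against 38 and 49 counts (log2 fold change 1.15, adjusted P = 0.173). Irx4, a ventricular heart factor, had 28 and 19 counts in control and 3 and 6 in Dax1KO cells in 2i/LIF (log2 fold change -2.39, adjusted P = 0.127) and 16 and 28 against 13 and 30 in LIF/serum. Neither Irx1 nor Irx4 was called, and the estimates of the 3 genes in LIF/serum had no common sign, with -0.17 for Irx4.

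Barx1 had 6 and 36 counts in control and 90 and 118 in Dax1KO cells in LIF/serum. The normalized counts were 22.4 ± 22.7 and 100.6 ± 20.5 (SD, n = 2), a 4.48-fold increase (log2 fold change 2.16, SE 0.59, adjusted P = 0.0465). The size rests on the control libraries, since the log2 fold change was 1.39 without control LIF/serum replicate 1 and 3.95 without replicate 2. The control libraries differed from each other by more than their mean, and the call was lost without control replicate 1, without either Dax1KO replicate, without the filter on low counts and in a fit of the LIF/serum libraries alone (adjusted P of up to 0.178). In 2i/LIF Barx1 had 176 and 243 counts in control and 315 and 377 in Dax1KO cells (log2 fold change 0.69, not called). Its relative Barx2 had 3 and 11 counts in control and 0 and 47 in Dax1KO cells in LIF/serum, where the groups overlap.

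Six4 fell in LIF/serum. It lies on the minus strand of chromosome 12, from 73099609 to 73113456. Six4 had 2092 and 1466 counts in control and 1100 and 1090 in Dax1KO cells and fell by 0.84 on the log2 scale (SE 0.19, adjusted P = 0.0244). The higher Dax1KO library lay below the lower control library. Six4 lost its call without control replicate 1, without either Dax1KO replicate and with no filter on low counts (adjusted P of up to 0.120). In 2i/LIF, Six4 had 1688 and 1930 counts in control and 1624 and 1956 in Dax1KO cells, where the groups overlap. The difference of the Six4 effect between media was -0.78 (SE 0.26, adjusted P = 0.159) and was not called.

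Six6, on the same chromosome, had 14 and 13 counts in control and 0 and 0 in Dax1KO cells in LIF/serum, at least 4.78-fold lower, and was not called (adjusted P = 0.0591). It was called in a fit of the LIF/serum libraries alone (adjusted P = 0.0412). Around Six4 and Six6, Trmt5, a tRNA methyltransferase gene, was also lower in Dax1KO cells in LIF/serum (log2 fold change -0.51, adjusted P = 0.0388). The values were -0.38 for Mnat1 (adjusted P = 0.0894), -0.43 for 4930447C04Rik (adjusted P = 0.0845), -0.41 for Slc38a6 and 0.03 for Ppm1a. Of these 5 genes Trmt5 was the one called by edgeR, and their difference from Six4 was not tested.

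The other Six-type genes were not called between genotypes in LIF/serum. Six2 had 8 and 14 counts in control and 10 and 19 in Dax1KO cells, Six3 had 0 and 7 against 19 and 6, and Six5 had 212 and 218 against 286 and 302. Their log2 fold changes were 0.26, 1.66 and 0.31. Six5 was the one of the 3 whose libraries did not overlap between genotypes.

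**Figure D3:**
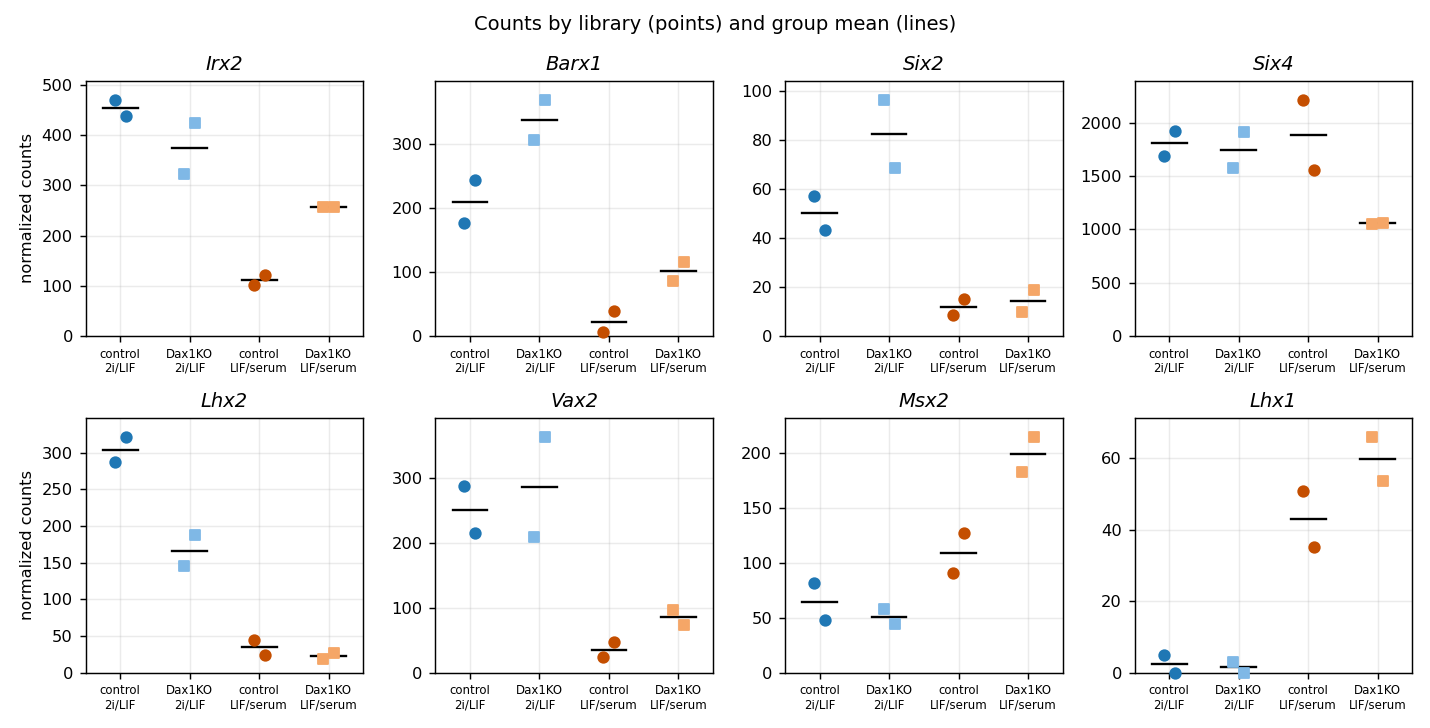
Normalized counts (vertical axis, starting at 0) in each library of the 4 groups for 8 members, with points for libraries and lines for the group means. Irx2 and Barx1 lie higher in Dax1KO than in control cells in LIF/serum and Six4 lies lower, while Lhx2, Six2 and Vax2 are high in 2i/LIF and Msx2 and Lhx1 in LIF/serum.

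Among members near the threshold in LIF/serum, Vax2 had 22 and 44 counts in control and 101 and 76 in Dax1KO cells (log2 fold change 1.28). It was not called in edgeR, but was called with DESeq2 (adjusted P = 0.0299). Vax2os on the opposite strand rose from 58 and 66 to 244 and 269 counts (log2 fold change 1.91, adjusted P = 0.00904), and without strand the reads of the 2 genes cannot be told apart where they overlap. Nkx2-9 had 219 and 186 counts in control and 151 and 112 in Dax1KO cells (log2 fold change -0.76). It was called when genes with at least 10 counts in every library were kept (adjusted P = 0.0467) and with counts divided by 3 (adjusted P = 0.0452). Msx2 had 85 and 119 counts in control and 191 and 220 in Dax1KO cells, without overlap and without a call (log2 fold change 0.87).

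Vax2, Emx1 and Dlx6 lie on chromosome 6, on which 28.3% of the 1054 genes tested were upregulated in Dax1KO cells in LIF/serum and 9.87% in 2i/LIF. For the genes of the chromosome, the log2 fold change had a median of 0.52 under LIF/serum and 0.44 under 2i/LIF, against 0.01 and -0.01 over all genes. Emx1, a cortical factor, had 9 and 13 counts in control and 22 and 39 in Dax1KO cells in LIF/serum (log2 fold change 1.33), and Dlx6 had 3 and 0 against 3 and 2. None of the 3 genes was called by edgeR, while DESeq2 called Vax2, and the part of the chromosome in their values was not tested.

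In 2i/LIF, 0 of the 43 members were called between Dax1KO and control cells by edgeR. Of all genes tested, 1.51% were upregulated and 1.65% downregulated. An unadjusted P under 0.05 was found for 7 members, or 16.3%, against 17.9% of all genes. DESeq2 called 1 of the 32 members to which it gave an adjusted P, against 7.94% of all such genes. The median log2 fold change was -0.14 over the members and -0.01 over all genes. Members with larger estimates had low counts, such as Nkx6-1 with 3 and 0 counts in control and 22 and 19 in Dax1KO cells, and Nkx1-2 with 37 and 14 against 3 and 3. Nkx6-1 acts in pancreas and motor neurons, and Nkx1-2 in the posterior neural plate. Nkx1-2 overlaps Fgfr2 on the same strand, which had 130 to 381 counts. Lhx4 went from 16 and 4 counts to 0 and 0, and Nkx1-1 from 8 and 0 to 0 and 0. Isl1, a factor of motor neurons and second heart field, had 109 and 73 counts against 62 and 55.

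**Figure D4:**
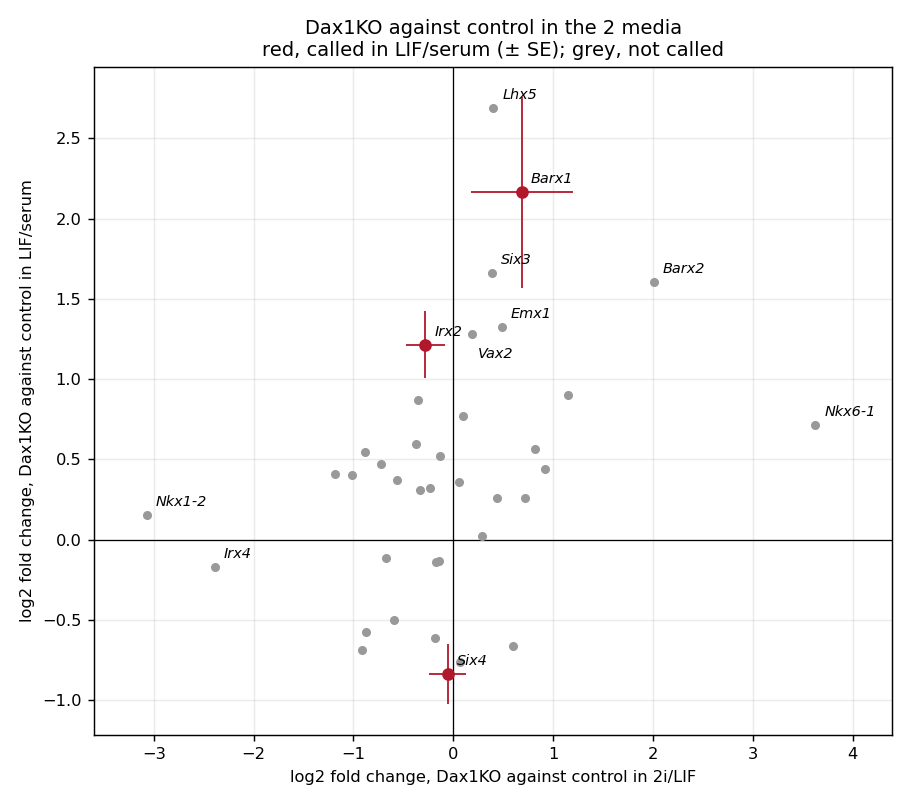
Log2 fold change of Dax1KO over control cells in 2i/LIF (horizontal axis) and in LIF/serum (vertical axis) for the tested members shown without a group at 0 in both libraries, with the 3 of these called in LIF/serum in red (± SE) and the others in grey. Barx1 and Irx2 lie above 0 and Six4 below 0 on the vertical axis, and Irx2 lies at -0.28 on the horizontal axis.

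The proteins that work with these families were read from fixed lists. Of 6 Eya and Dach genes, Eya1, Eya2 and Eya3 passed the filter on low counts. Of these 3, Eya2, a coactivator of Six-type proteins, was upregulated in Dax1KO cells in LIF/serum, from 3 and 0 to 9 and 38 counts (log2 fold change 3.74, SE 1.00, adjusted P = 0.0434), and the 2 Dax1KO libraries differed widely. In 2i/LIF Eya2 had 116 and 130 counts in control and 84 and 65 in Dax1KO cells. Of 7 tested LIM cofactors and LIM-only genes, Ldb1, the common partner of Lhx and Isl proteins, fell by 0.59 on the log2 scale in LIF/serum (adjusted P = 0.0138) from 5751 and 6281 to 4696 and 4104 counts. In 2i/LIF 0 of the 3 Eya genes, 0 LIM cofactors and 0 Groucho family genes were called.

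Of 6 Groucho family genes, Tle6 and Aes were upregulated and Tle4 was downregulated in LIF/serum, with log2 fold changes of 1.53 for Tle6 and -1.12 for Tle4. Of 9 TALE partners, Pbx3 fell by 1.07 on the log2 scale in LIF/serum (adjusted P = 0.0170), and Meis2 in 2i/LIF by 1.57 (adjusted P = 0.00962), from 1305 and 1079 to 367 and 456 counts. Of 43 tested regulators from other homeobox and Pax families, 2 rose (Cdx1 and Pax5) and 4 fell (En1, Pax6, Gbx2 and Pax8) in LIF/serum. En1, of the midbrain, had 78 and 71 counts in control and 14 and 15 in Dax1KO cells (log2 fold change -2.49, adjusted P = 0.00718). Cdx1, of the posterior body, rose in both media, by 1.90 on the log2 scale in LIF/serum and by 2.39 in 2i/LIF, and Pax8 rose by 1.64 in 2i/LIF. The median of these 43 in LIF/serum was 0.55.

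Markers of other cell types were measured in the same libraries. Of 6 primitive endoderm markers, 5 rose in Dax1KO cells in LIF/serum, 0 fell and 1 rose in 2i/LIF, and their summed level was 21.4 RPKM in control and 60.1 in Dax1KO cells in LIF/serum against 5.19 and 5.72 in 2i/LIF. Gata4, an endoderm factor, had 842 and 690 counts in control and 2458 and 2122 in Dax1KO cells in LIF/serum. Of 9 neural crest and mesenchyme markers, 4 rose in LIF/serum (Thy1, Pdgfrb, Tfap2a and Col1a1), with a summed level of 9.68 in control and 20.9 in Dax1KO cells, and 25.1 and 18.9 in 2i/LIF. In 2i/LIF 1 of these rose and 1 fell. Thus some markers of endoderm, mesenchyme and, as given next, trophectoderm moved in the comparison in which Irx2, Barx1 and Six4 were called. The part of these markers' cell types in these results was not tested.

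Of 7 trophectoderm markers, 3 rose and 1 fell in LIF/serum and 2 rose in 2i/LIF, with summed levels of 49.4 in control and 71.6 in Dax1KO cells in LIF/serum and 42.4 and 67.9 in 2i/LIF. Of 6 tested neural markers, Pax6 fell in LIF/serum and 0 were called in 2i/LIF, with summed levels between 33.5 and 74.1. The 7 mesoderm markers had a summed level between 1.28 and 2.49 in all groups, and 0 were called between genotypes in either medium. Of the 4 formative and primed markers 0 were called between genotypes, and their summed level was 28.9 and 29.9 in 2i/LIF and 74.0 and 69.9 in LIF/serum. Of the 9 pluripotency markers, Klf4 rose in LIF/serum by 0.79 on the log2 scale, and 0 were called in 2i/LIF. Counts of 0 called genes are edgeR's. For the 8 lists with 0 calls in 2i/LIF, 16 of 51 tested genes had an unadjusted P under 0.05 and DESeq2 called 8, of which 5 were the pluripotency markers Pou5f1, Sox2, Zfp42, Tfcp2l1 and Dppa3. For the 2 lists with 0 calls in LIF/serum, 0 of 11 genes had an unadjusted P under 0.05 and DESeq2 called 0.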

How the data were processed

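The authors deposited raw counts, a whole number for every gene of each library. The submitters' processing notes name HISAT2 2.0.4, mm10 and DESeq2. The counting method, its annotation and its use of strand are not given in the sources used here. Groups came from the sample titles.

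Symbols, coordinates, overlaps and exon lengths came from GENCODE M21 (GRCm38), in which 52403 of the 52550 genes were found. Counts were fitted with edgeR 4.0.16 in R 4.3.3 with 1 mean per group (4 groups) after filterByExpr and TMM scaling (factors 0.960 to 1.04), a quasi-likelihood test and Benjamini-Hochberg adjustment over 20749 genes. The biological coefficient of variation was 20.9%. Calls needed an adjusted P up to 0.05 with a fold change of 1.2 or more, and the difference between media needed the adjusted P alone. Normalized counts are counts scaled to the mean effective library size. Levels per length (RPKM) divide these by exon length in kb and by library size. Transcripts were compared with blastn 2.17.0, and no member matched another gene over more than 13.2% of its length at 95% identity. The test was checked on simulated data. Changes were planted only in genes above a set mean count, so members with few counts were not covered.

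Alternatives were DESeq2 1.42.0 (the study's tool), RLE factors, no filter, at least 10 counts in every library, separate fits, the replicate number as a block, counts divided by 3, the longest transcript, and each library left out in turn, where a lone library is assumed to vary like the other groups. The members and gene lists were chosen with earlier results of these data known. Named with full values were members called in any comparison and the highest member per length of each family. From each list, up to 4 called genes with the lowest adjusted P in LIF/serum were named; other genes were named after their values were seen. Homeodomain sequences are not printed here. Values of 2 members and of 1 listed pathway gene are not reported here, in text or figures, while counts and medians include them.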

Additional observations from a re-analysis of the deposited data

Results flagged for a closer look

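The Dax1KO effect on Irx2 differed between media: Dax1KO over control cells gave a log2 fold change of 1.21 in LIF/serum and of -0.28 in 2i/LIF, a difference of 1.49 (SE 0.29, adjusted P = 0.0402 by the interaction contrast of edgeR). Both Dax1KO libraries lay above both control libraries in LIF/serum, and below both in 2i/LIF by raw counts. The difference was not called without any single library or without the filter on low counts, with an adjusted P of up to 0.145. Primitive endoderm markers had a summed level of 60.1 in Dax1KO cells in LIF/serum and 5.72 in 2i/LIF, and their part in the value of Irx2 was not tested.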

How the results depend on the processing

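No called value of a member changed direction under any alternative. Of 33 called values, 25 were called in every alternative other than those leaving out a library, and 13 in every fit that left out 1 library. Members called between Dax1KO and control cells in 2i/LIF numbered 0, and 1 with DESeq2 and with the replicate block. In LIF/serum 4 were called, 2 with no filter on low counts, and 1 to 4 with 1 library left out. For the difference between media 1 was called, 0 with no filter and 0 to 0 with 1 library left out. In control cells 15 were called between media, 8 among genes with at least 10 counts in every library, where fewer members were tested, and 10 to 12 with 1 library left out. In Dax1KO cells the count was 13, and 5 to 11 with 1 library left out. Genes of the fixed lists called in 2i/LIF numbered 10, with 20 under DESeq2 and 3 with no filter, and 13 for the difference between media, with 28 under DESeq2 and 5 with no filter. Apart from the smaller sets of libraries or genes, the cause was not tested. Replicate numbers share only a label: replicate differences correlated at -0.015 to 0.108 between groups, and the block gave 1, 4, 1, 13 and 13 called members against 0, 4, 1, 15 and 13. Under the block Six6 and Lhx4 were not called between media in control cells (adjusted P = 0.0732 and 0.0867). Low counts limit the precision, and 14 of the 46 members had a 0 in at least 1 library.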

Other observations

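Signalling and chromatin genes that act upstream of these families were read from fixed lists in the same fits. Of 9 tested Hedgehog pathway genes, 4 were downregulated in Dax1KO cells in LIF/serum and 0 were upregulated. Ptch1, the Hedgehog receptor and itself a target, had 4142 and 3004 counts in control and 1494 and 1657 in Dax1KO cells (log2 fold change -1.32, SE 0.17, adjusted P = 0.00424). Gli1, a transcription factor and target of the pathway, had 3042 and 2458 counts against 1159 and 931 (log2 fold change -1.54, adjusted P = 0.0107). Hhip, a Hedgehog-binding antagonist, had 102 and 105 counts against 18 and 8 (log2 fold change -3.12, adjusted P = 0.00435). The ligand Shh had at most 8 counts in any library, and Ihh had 54 and 73 counts in control and 177 and 64 in Dax1KO cells in LIF/serum. In 2i/LIF 0 Hedgehog genes were called by edgeR, 2 had an unadjusted P under 0.05, and DESeq2 called Gli1. The difference of the Dax1KO effect between media was called for 3 of the 9.

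Of 7 BMP ligand and Id genes, Bmp7 rose and Id2 and Id1 fell in LIF/serum, with log2 fold changes of 1.89, -1.45 and -0.83, and Id1 rose by 1.41 in 2i/LIF. Of 12 genes of Polycomb repressive complex 2, Ezh1 and Ezh2 rose by 0.72 and 0.47 and Eed, a core subunit, fell by 0.65 in LIF/serum, from 9369 and 9658 to 7209 and 6191 counts. Ezh2, the catalytic subunit, lies on chromosome 6 and also rose in 2i/LIF, by 0.64.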
